A study of Homo sapiens with 64 samples.

Results

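Most of the genes described here encode nuclear subunits of the mitochondrial respiratory chain and of ATP synthase. They were chosen by symbol: every nuclear gene whose symbol starts with NDUFA, NDUFB, NDUFC, NDUFS, NDUFV, SDHA to SDHD, UQCR, COX4 to COX8 or ATP5, without assembly factors and pseudogenes. The rule gave 82 genes with a probe, of 20046 genes with a probe in all, and 76 of the 82 gave signal above background and were tested among 13393 genes. The 76 comprised 35 genes of complex I, 3 of complex II, 8 of complex III, 12 of complex IV and 18 of complex V. The complex was set by symbol. The synthase inhibitor ATP5IF1 is therefore counted in complex V, and COX7A2L, which joins complexes III and IV, in complex IV. The 6 genes with a probe but too little signal were NDUFS6 and the tissue-restricted isoforms COX4I2, COX6A2, COX6B2, COX7A1 and COX8C. NDUFA4 is listed under the symbol COXFA4 and cytochrome c1 under CYC1, so neither met the rule, and no probe naming a gene of the mitochondrial genome was used.

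The respiratory chain moves electrons from NADH (through complex I) and from succinate (through complex II) to ubiquinone, then through complex III and cytochrome c to complex IV, which reduces oxygen. Complexes I, III and IV pump protons across the inner membrane, and complex V, the ATP synthase, uses the gradient to make ATP. Most subunits are encoded in the nucleus, and B-cell lymphomas are known to differ in how far they rely on this pathway.

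Expression was measured on single-colour Illumina bead arrays in established human lymphoma cell lines grown in culture. SUDHL2 and SUDHL6, both derived from diffuse large B-cell lymphoma, were each profiled without treatment, after DMSO (the vehicle) for 1, 2 or 12 h, and after OTX015 for 1, 2 or 12 h. This gave 14 groups of 3 arrays, numbered as experiments 1 to 3. OTX015 is a small molecule that blocks the acetyl-lysine pocket of the BET bromodomain proteins, which recruit the transcription machinery to acetylated chromatin. Basal levels came from 22 further cultures of lymphoma lines without treatment (the panel), each on a single array. The sources used here give neither the dose of OTX015 nor the time at which untreated cells were taken. Each treated line is 1 cell line, and the labels do not say whether the 3 experiments were separate cultures, so the p-values reflect array-to-array spread alone, and that spread may be technical.

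The 42 time-course arrays had a median signal of 88.5 to 115 and 34.0% to 42% of probes above background, against 88.3 to 118 and 36.9% to 47.4% on the panel arrays. Replicate arrays correlated at 0.980 to 0.990. Of 8 B-cell markers, 6 were tested and 5 lay above background on every time-course array. Their summed normalised intensity was 4748 to 7911 in SUDHL2 and 16677 to 23069 in SUDHL6. Of 7 T and NK cell markers, 2 were tested and none was above background on every array, with sums of 61.5 to 115 in SUDHL2 and 47.8 to 66.5 in SUDHL6. Of 7 myeloid markers 5 were tested (sums of 539 to 1172 and 947 to 1338), and 1 lay above background on every array of each line. Of 7 stromal and epithelial markers 2 were tested (101 to 292 and 53.6 to 83.7). Of these, 1 lay above background on every SUDHL2 array and 0 on every SUDHL6 array. Values below are log2 normalised intensities, differences are on the log2 scale with the standard error (SE) of the fit (3 arrays against 3), and a gene was called when its adjusted p from limma, with Benjamini-Hochberg adjustment over all 13393 genes, was below 0.05. Levels of different genes come from different probes and are not compared.

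The start-proximal sequence of the genes is shown first, because it holds motifs of known mitochondrial regulators. RefSeq (GRCh38.p14) gave a promoter window, 250 bases before to 50 after the start, for 64 of the 76 genes. The core of the site of NRF1 (nuclear respiratory factor, an activator of respiratory genes), searched as GCGCATGC on both strands, occurred in 11 of the 64 windows (17.2%), against 3.27% of all 27305 promoters and 4.26% of those of protein-coding genes. The YY1 site AAGATGGCG occurred in 7 (10.9%, against 1.85% of all and 2.74% of protein-coding promoters) and the ETS or GABP site CCGGAAGTG in 4 (6.25%, against 2.5% and 3.55%). The MYC E-box CACGTG occurred in 7 (10.9%), near its share of 7.43% of all and 8.88% of protein-coding promoters. The palindrome of the NRF1 core matched on both strands and was then counted on each. A pair of stretches with 2 matches of the NRF1 core in capitals, all of them before the start, is shown as an example:
SDHD, chr11:112086738-112086797 (+): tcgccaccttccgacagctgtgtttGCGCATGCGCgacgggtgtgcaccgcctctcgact
COX6A1, chr12:120437870-120437971 (+): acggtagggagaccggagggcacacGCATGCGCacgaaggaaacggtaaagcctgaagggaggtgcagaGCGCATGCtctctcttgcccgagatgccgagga
SDHD encodes a membrane anchor of complex II and COX6A1 a structural subunit of complex IV. Neither was called after OTX015 in either line.

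None of the 76 genes was called after OTX015 at 1 h in either line. At this time 0.187% of all genes in SUDHL2 (0.0523% higher, 0.134% lower) and 0.821% in SUDHL6 (0.172% higher, 0.65% lower) were called, and 2 and 4 of the 76 had an unadjusted p below 0.05. At 2 h none was called in SUDHL2, where 3.29% of all genes were (0.829% higher, 2.46% lower) and 4 of the 76 had an unadjusted p below 0.05. Without DMSO 2 h replicate 1, 2 genes were called higher there. In SUDHL6 at 2 h, where 6% of all genes were called (2.76% higher, 3.25% lower), the complex III gene UQCR11 alone was called. It encodes the smallest subunit of the cytochrome bc1 complex. Its 3 DMSO arrays read 6.69, 6.60 and 6.41 and its 3 OTX015 arrays 6.14, 5.79 and 5.89, so the groups did not overlap. The fall was -0.62 ± 0.15 (adjusted p = 0.0063). The count at 2 h in SUDHL6 was 0 without OTX015 replicate 2, 2 without DMSO replicate 2, and 3 (2 higher, 1 lower) with arrays scaled to their 75th percentile.

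**Figure D1:**
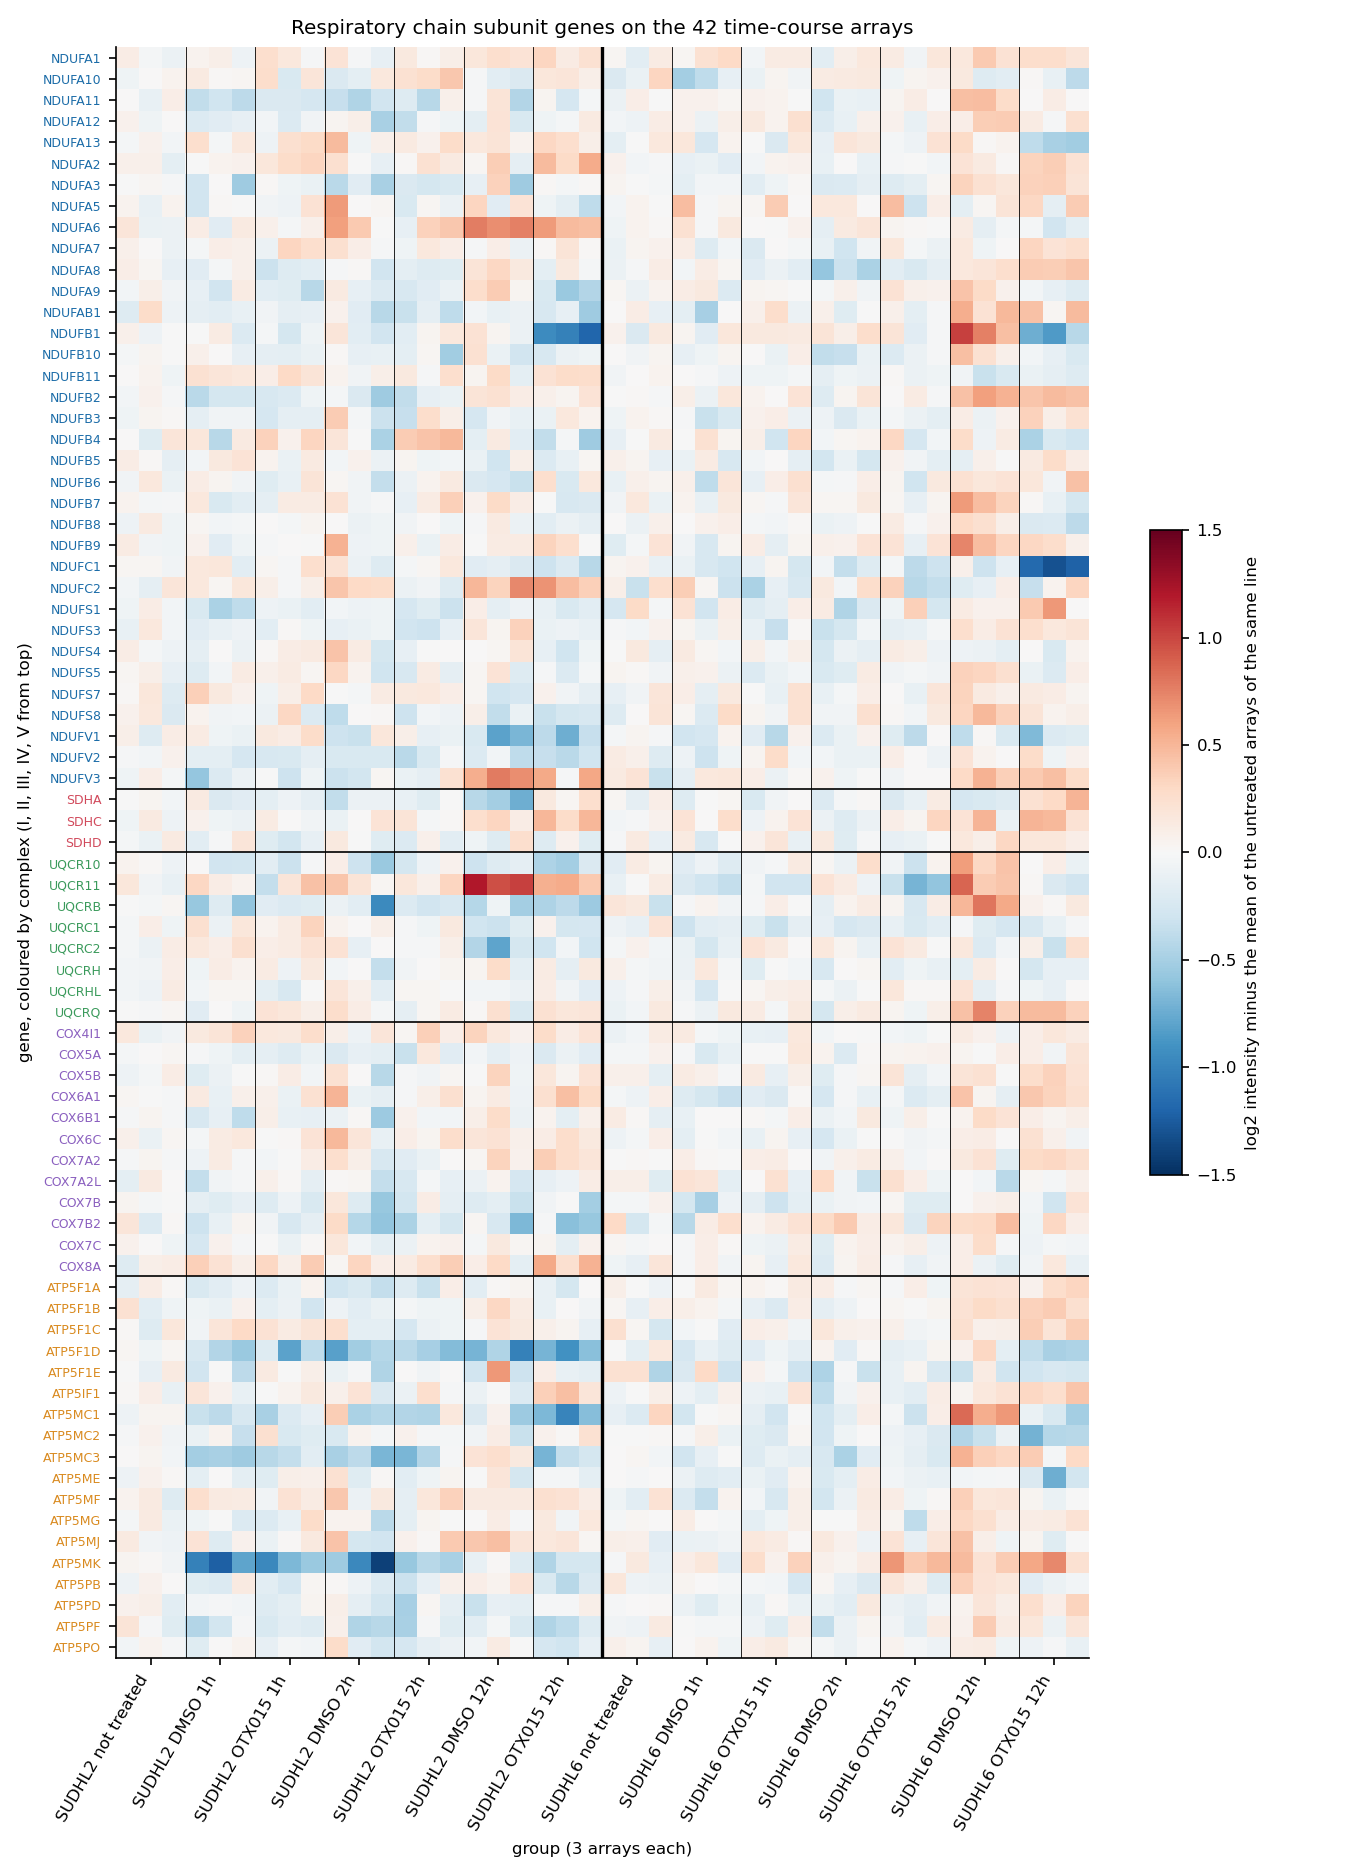
Log2 intensity of the 76 genes (rows, grouped by complex from I at the top to V at the bottom) on each of the 42 time-course arrays (columns, 3 per group), with the mean of the untreated arrays of the same line subtracted. Blue marks lower and red higher values. The rows of NDUFB1 in both lines and NDUFC1 in SUDHL6 turn blue in the OTX015 12 h columns. In the DMSO 12 h columns of SUDHL6, 14 of the 76 genes were called higher than untreated, against 8.68% of all genes. That count was 7 without untreated replicate 1 or without DMSO 12 h replicate 1.

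At 12 h in SUDHL2, OTX015 raised 4 and lowered 10 of the 76 genes. The call rate, 18.4%, was below that of all genes, 34.1% (17.7% higher and 16.5% lower). The median change of the 76 was -0.05, against 0.01 over all genes. The 10 that fell were 4 of 35 genes of complex I (NDUFB1, NDUFA9, NDUFB7, NDUFS3), 1 of 8 of complex III (UQCR11) and 5 of 18 of complex V (ATP5MC3, ATP5MC1, ATP5PB, ATP5PO, ATP5F1B). The 4 that rose were NDUFA2, SDHA, COX8A and ATP5IF1. With arrays scaled to their 75th percentile, 2 rose and 11 fell.

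At 12 h in SUDHL6, 1 gene rose and 16 fell, a call rate of 22.4% against 26.9% of all genes (13.9% higher and 13% lower). The median change was -0.08 against 0.02. Of complex I, 9 of 35 genes fell (NDUFB1, NDUFC1, NDUFB7, NDUFA13, NDUFB8, NDUFA9, NDUFB10, NDUFS5, NDUFA11). Of complex III, 3 of 8 fell (UQCR11, UQCRB, UQCR10), and of complex V, 4 of 18 fell (ATP5MC1, ATP5F1D, ATP5ME, ATP5PB). The gene that rose was SDHA. None of the 12 genes of complex IV was called in SUDHL6, and 1 of them, COX8A, was called in SUDHL2. The lines share no arrays in these comparisons. The genes that fell in both were ATP5MC1, ATP5PB, NDUFA9, NDUFB1, NDUFB7 and UQCR11, which made 60% of the SUDHL2 list and 37.5% of the SUDHL6 list. Over all genes, 956 fell in both lines, of 2204 in SUDHL2 and 1736 in SUDHL6.

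**Figure D2:**
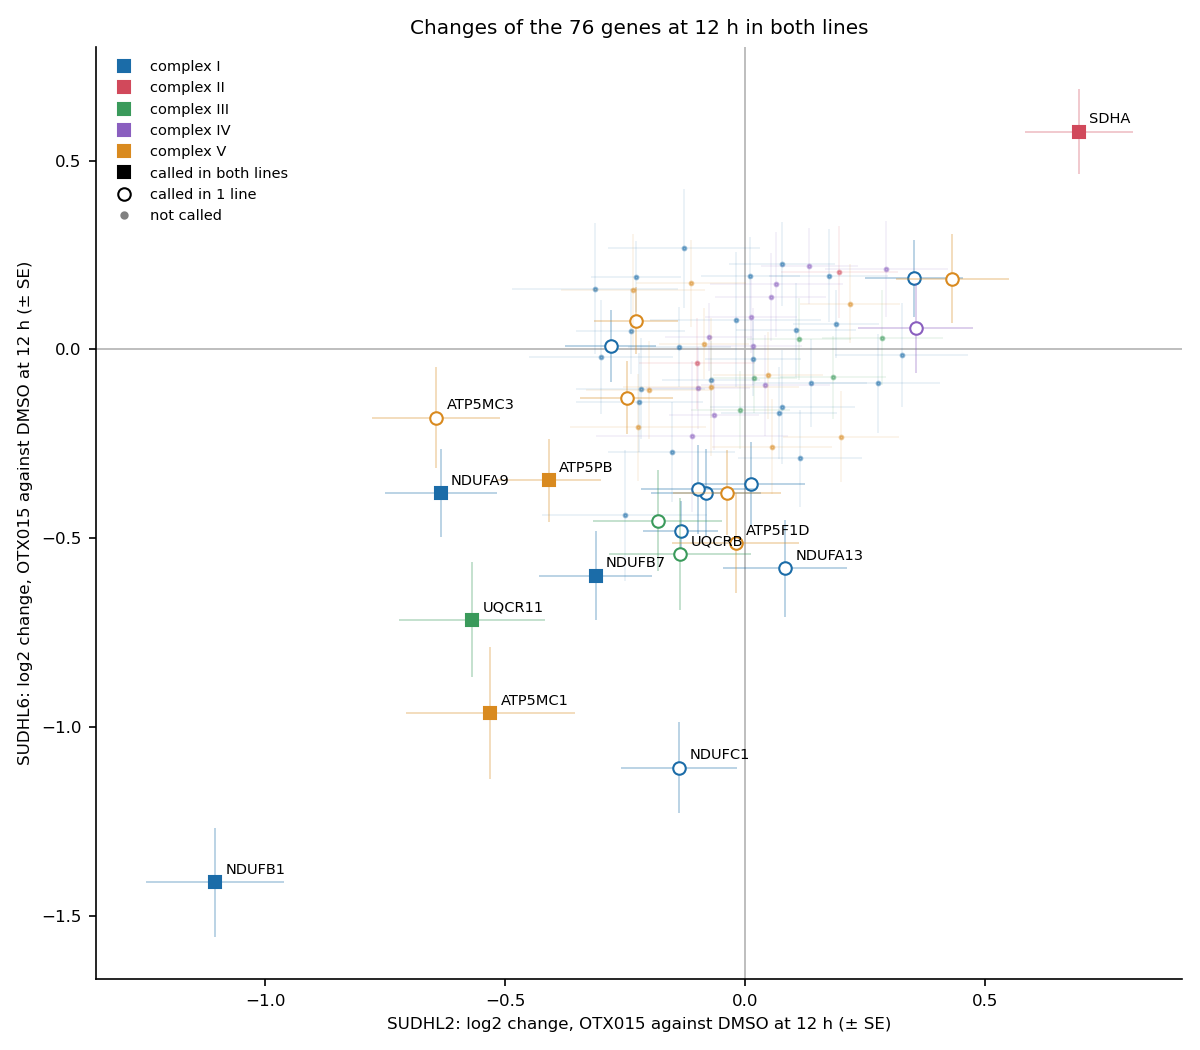
Log2 change from DMSO to OTX015 at 12 h in SUDHL2 (x axis) against SUDHL6 (y axis) for the 76 genes, coloured by complex, with bars of 1 SE. Filled squares were called in both lines, open circles in 1 line and small dots in neither. NDUFB1 lies lowest in both lines (-1.11 and -1.41) and SDHA highest (0.69 and 0.58).

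Within complex I, the steepest fall was that of NDUFB1, an accessory subunit of the proton-pumping membrane arm. In SUDHL2 its DMSO arrays at 12 h read 7.20, 7.02 and 6.89 and its OTX015 arrays 6.04, 5.97 and 5.79. In SUDHL6 they read 7.41, 7.13 and 6.84 with DMSO and 5.65, 5.53 and 5.96 with OTX015. Every OTX015 array lay below every DMSO array of its line. The change was -1.11 ± 0.14 in SUDHL2 (adjusted p = 5.0e-08) and -1.41 ± 0.14 in SUDHL6 (adjusted p = 3.1e-10), a 2.15-fold and a 2.66-fold reduction. The untreated arrays averaged 6.99 in SUDHL2 and 6.38 in SUDHL6, so that the OTX015 arrays, at 5.94 and 5.71, also lay below the untreated level. In bulk RNA from a culture, less transcript per cell and fewer cells carrying it cannot be told apart. The 150 bases before the NDUFB1 start hold none of the letters searched for:
NDUFB1, chr14:92121707-92121856 (-): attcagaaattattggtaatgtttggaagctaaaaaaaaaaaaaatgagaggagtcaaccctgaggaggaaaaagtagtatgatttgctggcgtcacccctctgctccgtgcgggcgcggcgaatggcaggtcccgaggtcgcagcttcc

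NDUFC1, another accessory subunit of the membrane arm, fell in SUDHL6 alone. Its DMSO arrays at 12 h read 7.97, 7.58 and 7.78 and its OTX015 arrays 6.73, 6.59 and 6.68, a change of -1.11 ± 0.12 (adjusted p = 1.9e-09). In SUDHL2 the DMSO arrays read 9.30, 9.34 and 9.25 and the OTX015 arrays 9.16, 9.26 and 9.05. There the groups overlapped and the change was -0.14 ± 0.12 (adjusted p = 0.43). The difference between the lines was tested in the same fit over all genes, in which 12.3% of all genes (6.17% higher and 6.14% lower in SUDHL2) and 4 of the 76, all of complex I, were called. The response in SUDHL2 minus that in SUDHL6 was 0.97 ± 0.17 for NDUFC1 (adjusted p = 7.8e-05). For NDUFA13, an accessory subunit that has also been described as GRIM-19, it was 0.66 ± 0.18 (adjusted p = 0.011), from a change of 0.08 ± 0.13 in SUDHL2 and of -0.58 ± 0.13 in SUDHL6. NDUFB8, an accessory subunit of the membrane arm, gave 0.35 ± 0.11 (adjusted p = 0.032), from -0.13 ± 0.08 and -0.48 ± 0.08. NDUFA8, which lies on the intermembrane-space side, gave -0.42 ± 0.13 (adjusted p = 0.029), from -0.23 ± 0.09 and 0.19 ± 0.09, of which neither passed the test alone. The count of 4 became 2 without SUDHL6 DMSO 12 h replicate 1, without DMSO 12 h replicate 2, or without OTX015 12 h replicate 3. NDUFA13 also lost its call with the arrays scaled to their 75th percentile (adjusted p = 0.0711).

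NDUFA9, which stabilises the junction of the peripheral and membrane arms, fell in both lines. The SUDHL2 arrays read 10.25, 10.37 and 10.02 with DMSO and 9.76, 9.43 and 9.55 with OTX015 at 12 h (-0.63 ± 0.12, adjusted p = 2.8e-05). In SUDHL6 the change was -0.38 ± 0.12 (adjusted p = 0.012), from 9.96, 9.82 and 9.59 to 9.48, 9.41 and 9.34. The groups did not overlap in either line. NDUFB7 fell by 0.60 in SUDHL6 (SE 0.12, adjusted p = 1.2e-04) and by 0.31 in SUDHL2 (SE 0.12, adjusted p = 0.037). In SUDHL2 the NDUFB7 call was lost without replicate 2 or 3 of either group. The catalytic core of complex I was mostly below the threshold. NDUFS1, the subunit with the largest number of iron-sulphur clusters, changed by -0.13 ± 0.16 in SUDHL2 and 0.27 ± 0.16 in SUDHL6 (adjusted p = 0.59 and 0.23). NDUFV1, which binds NADH and the flavin, changed by 0.08 ± 0.15 and -0.15 ± 0.15 (adjusted p = 0.76 and 0.52). NDUFS3, a core subunit of the peripheral arm, fell in SUDHL2 by 0.28 (SE 0.09, adjusted p = 0.019), a call lost without DMSO 12 h replicate 3 and with 75th percentile scaling. NDUFAB1, the mitochondrial acyl carrier protein, was not called in either line (-0.22 ± 0.13 and -0.10 ± 0.13).

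Complex II gave the one rise common to both lines. SDHA is its flavoprotein, the subunit that oxidises succinate. With DMSO for 12 h SUDHL2 read 9.06, 8.97 and 8.75 and with OTX015 9.62, 9.51 and 9.73. SUDHL6 read 9.16, 9.18 and 9.22 with DMSO and 9.65, 9.72 and 9.93 with OTX015. All OTX015 arrays were above all DMSO arrays of the same line. The rise was 0.69 ± 0.11 in SUDHL2 (adjusted p = 3.4e-06) and 0.58 ± 0.11 in SUDHL6 (adjusted p = 9.7e-05). A further SDHA probe gave 0.39 ± 0.18 in SUDHL2 (adjusted p over all probes = 0.12) and 0.78 ± 0.18 in SUDHL6 (adjusted p over all probes = 0.0013). In SUDHL2 the untreated arrays averaged 9.48, DMSO at 12 h 8.93 and OTX015 at 12 h 9.62. The means in SUDHL6 in the same order were 9.42, 9.19 and 9.76. The other tested genes of the complex, the membrane anchors SDHC and SDHD, were not called in either line. SDHC changed by 0.20 ± 0.12 in both lines, and SDHD by -0.10 ± 0.12 and -0.04 ± 0.12. A further SDHC probe went the opposite way in both lines, so SDHC is uncertain. The 150 bases before the SDHA start also hold none of the letters searched for:
SDHA, chr5:218170-218319 (+): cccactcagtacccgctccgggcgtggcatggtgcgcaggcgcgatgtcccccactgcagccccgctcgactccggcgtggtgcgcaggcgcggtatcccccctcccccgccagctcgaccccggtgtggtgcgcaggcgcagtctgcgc

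In complex III, UQCR11 fell in both lines. Its SUDHL2 arrays at 12 h read 6.97, 6.73 and 6.79 with DMSO and 6.30, 6.32 and 6.16 with OTX015 (-0.57 ± 0.15, adjusted p = 0.0028). Its SUDHL6 arrays read 7.35, 6.86 and 6.89 with DMSO and 6.50, 6.27 and 6.20 with OTX015 (-0.72 ± 0.15, adjusted p = 3.2e-04). The groups were separate in both lines. The untreated arrays averaged 5.77 in SUDHL2, below both 12 h groups, and 6.48 in SUDHL6, between them. UQCRB, the ubiquinone-binding protein of the complex, fell by 0.54 in SUDHL6 (SE 0.15, adjusted p = 0.0044) and changed by -0.14 ± 0.15 in SUDHL2 (adjusted p = 0.54). The small subunit UQCR10 changed by -0.45 ± 0.13 in SUDHL6 (adjusted p = 0.0090) and by -0.18 ± 0.13 in SUDHL2 (adjusted p = 0.33). Further probes of UQCRB (-0.24 and -0.36) and UQCR10 (-0.10 and -0.31) also read lower in SUDHL6, but none of them passed the test over all probes. The core protein UQCRC1 was not called in either line (0.11 ± 0.11 and 0.03 ± 0.11). UQCRH, the hinge protein, and its near-identical copy UQCRHL may share signal and are uncertain as separate genes, and neither was called.

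In complex IV, 1 gene was called in SUDHL2 and none in SUDHL6. Its 12 tested genes had a median change of 0.03 in SUDHL2 and 0.04 in SUDHL6. COX4I1, the largest nuclear subunit, changed by 0.01 ± 0.10 and 0.09 ± 0.10, and COX5A by -0.08 ± 0.09 and 0.03 ± 0.09. COX7A2 changed by 0.13 ± 0.10 and 0.22 ± 0.10 (adjusted p = 0.34 and 0.11). COX7A2L, which joins complexes III and IV into supercomplexes, gave 0.06 ± 0.14 and 0.17 ± 0.14 (adjusted p = 0.78 and 0.41). COX8A, the smallest subunit, rose in SUDHL2 by 0.35 ± 0.12 (adjusted p = 0.018), but its 12 h groups overlapped: 12.60, 12.80 and 12.36 with DMSO and 13.07, 12.74 and 13.02 with OTX015. Leaving out OTX015 12 h replicate 1 or 3 or DMSO 12 h replicate 3 ended this call. COX7B2, an isoform best known from testis, was not well above background on any SUDHL6 array.

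In complex V, both called proton-channel genes fell. ATP5MC1 and ATP5MC3 encode the same mature c-subunit, the ring that turns as protons pass, from separate precursors. ATP5MC1 in SUDHL6 read 11.43, 11.13 and 11.23 with DMSO at 12 h and 10.48, 10.35 and 10.07 with OTX015 (-0.96 ± 0.18, adjusted p = 3.9e-05). In SUDHL2 it read 11.15, 11.43 and 10.83 against 10.70, 10.39 and 10.73 (-0.53 ± 0.18, adjusted p = 0.016). The groups did not overlap, but the SUDHL2 call was lost without replicate 2 of either group. A further ATP5MC1 probe gave -0.80 ± 0.16 in SUDHL6 (adjusted p over all probes = 1.7e-04) and -0.24 ± 0.16 in SUDHL2 (adjusted p over all probes = 0.30). ATP5MC3 fell in SUDHL2 from 7.19, 7.23 and 7.13 to 6.28, 6.62 and 6.72 (-0.64 ± 0.13, adjusted p = 1.6e-04). In SUDHL6 its change was -0.18 ± 0.13 (adjusted p = 0.36). The third gene of the c-subunit, ATP5MC2, was not called in either line.

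ATP5PB, the b subunit of the peripheral stalk, fell by 0.41 in SUDHL2 (SE 0.11, adjusted p = 0.0028) and by 0.35 in SUDHL6 (SE 0.11, adjusted p = 0.015). ATP5F1D, the delta subunit of the central stalk, fell by 0.51 in SUDHL6 (SE 0.13, adjusted p = 0.0026) and changed by -0.02 ± 0.13 in SUDHL2. Its further probe gave -0.86 in SUDHL6 and -0.43 in SUDHL2 (adjusted p over all probes = 6.0e-05 and 0.041), so the probes disagree on the SUDHL2 call. A further ATP5PB probe fell by 0.57 in SUDHL2 and gave -0.24 in SUDHL6 (adjusted p over all probes = 9.8e-04 and 0.24). The catalytic head changed little: ATP5F1A gave -0.09 ± 0.09 in SUDHL2 and 0.02 ± 0.09 in SUDHL6. ATP5F1B gave -0.23 ± 0.09 in SUDHL2 (adjusted p = 0.041) and 0.08 ± 0.09 in SUDHL6, and its SUDHL2 value turned to 0.0125 (adjusted p = 0.941) with 75th percentile scaling. ATP5IF1, the inhibitor that blocks ATP hydrolysis by the synthase, rose in SUDHL2 from 10.44, 10.52 and 10.33 to 10.89, 10.98 and 10.71 (0.43 ± 0.12, adjusted p = 0.0034), with no overlap. With 75th percentile scaling its call was lost (adjusted p = 0.115). In SUDHL6 ATP5IF1 changed by 0.19 ± 0.12 (adjusted p = 0.26).

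**Figure D3:**
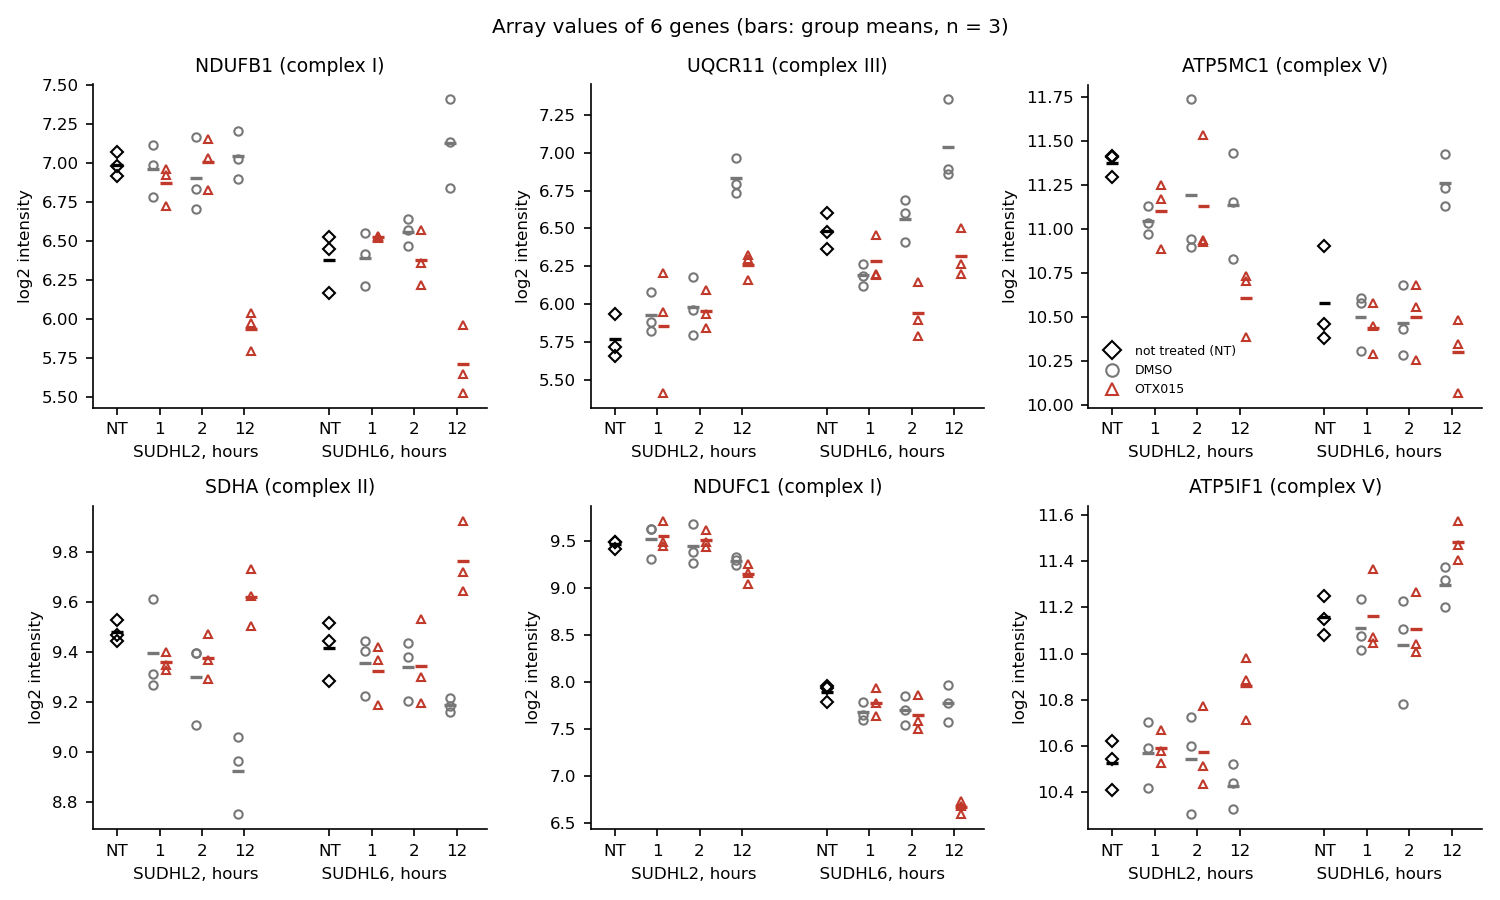
Log2 intensity of 6 genes on every time-course array, by hours of treatment in SUDHL2 (left of each panel) and SUDHL6 (right): diamonds untreated (NT), circles DMSO, triangles OTX015, bars the mean of 3 arrays. The OTX015 arrays at 12 h lie below the DMSO arrays for NDUFB1, UQCR11 and ATP5MC1 and above them for SDHA in both lines, and NDUFC1 drops in SUDHL6 only, to a mean of 6.67.

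Sums of markers of other cell types differed at 12 h in SUDHL2. The summed T and NK markers were 92.3 to 104 with DMSO and 61.5 to 67.8 with OTX015, and the stromal and epithelial markers 220 to 264 and 101 to 114. The myeloid markers summed to 539 to 748 with DMSO and 951 to 1089 with OTX015 in SUDHL2. In SUDHL6 the ranges overlapped, at 49.6 to 55.3 with DMSO and 47.8 to 54.6 with OTX015 for T and NK markers, 62.3 to 79.1 and 61.2 to 68.3 for stromal and epithelial markers, and 995 to 1070 and 1036 to 1338 for myeloid markers. The B-cell markers summed to 5381 to 6414 with DMSO and 7601 to 7911 with OTX015 in SUDHL2, and to 20244 to 21957 and 16677 to 18650 in SUDHL6. Their part in the results was not tested. Arrays were run on 7 slides, and both 12 h comparisons could be read within slides holding DMSO and OTX015 arrays of a line. NDUFB1 differed by -1.11 within slide 2 and -1.10 within slide 3 in SUDHL2, and by -1.02 within slide 1 and -1.82 within slide 4 in SUDHL6. SDHA differed by 0.55 and 0.98 within the SUDHL2 slides and by 0.72 and 0.52 within the SUDHL6 slides. ATP5MC1 in SUDHL2 differed by -0.75 within slide 2 and by -0.10 within slide 3, which held 1 array of each group. Where the groups do not overlap, the sign within a slide is fixed, so it is not counted.

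Whether the 12 h response differed from the 2 h response was tested in each line. In SUDHL2, 6 of the 76 genes passed (20.6% of all genes did, 10.5% higher and 10.2% lower), with 1 response higher and 5 lower at 12 h. In SUDHL6, 11 passed (12.9% of all genes, 5.71% higher and 7.2% lower), 1 higher and 10 lower. NDUFB1 had the steepest shift in both, -1.21 ± 0.20 in SUDHL2 (adjusted p = 2.0e-05) and -1.23 ± 0.20 in SUDHL6 (adjusted p = 2.4e-05). The SDHA response shifted up by 0.62 ± 0.16 and 0.57 ± 0.16 (adjusted p = 0.0037 and 0.011). The SUDHL2 count was 11 without DMSO 2 h replicate 1. The SUDHL6 count was 6 without DMSO 12 h replicate 1 and 7 without DMSO 2 h replicate 1, OTX015 2 h replicate 1 or OTX015 12 h replicate 2 or 3.

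The genes of 5 related lists were read in the same fit, in which 17.7% of all genes rose and 16.5% fell in SUDHL2, and 13.9% rose and 13% fell in SUDHL6. The lists were not tested against each other or against all genes, and shares near these values are no result about a list. Of 76 mitochondrial ribosomal proteins, which translate the chain's mitochondrially encoded subunits, 45 fell and 2 rose in SUDHL2, and 39 fell and 1 rose in SUDHL6, with medians of -0.36 and -0.33. MRPL24 changed by -1.10 ± 0.09 (adjusted p = 2.3e-12) and -0.79 ± 0.09 (adjusted p = 1.5e-08), and MRPL12 in SUDHL6 by -0.94 ± 0.13 (adjusted p = 1.8e-07). Of 53 assembly factors tested, 17 fell and 7 rose in SUDHL2, and 13 fell and 5 rose in SUDHL6, the rises at or below the share of all genes. COA7, a factor for complex IV and complex I assembly, changed by -1.40 ± 0.15 and -0.86 ± 0.15 (adjusted p = 4.4e-10 and 1.5e-05). SURF1, another factor of complex IV assembly, rose by 0.62 ± 0.13 in SUDHL2 and 0.81 ± 0.13 in SUDHL6 (adjusted p = 1.4e-04 and 3.0e-06).

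Of 21 regulators of mitochondrial biogenesis, 11 fell and 4 rose in SUDHL2, and 5 fell and 1 rose in SUDHL6, the rises in SUDHL2 being near the 17.7% of all genes. MYC, which drives growth genes, changed by -3.48 ± 0.22 in SUDHL2 (adjusted p = 4.6e-16) and by -0.50 ± 0.22 in SUDHL6 (adjusted p = 0.090). TWNK, the helicase that copies mitochondrial DNA, fell by 1.76 (SE 0.17) and 0.85 (SE 0.17), with adjusted p = 3.0e-11 and 1.1e-04. Of 19 genes of the citric acid cycle and pyruvate entry, 6 rose and 3 fell in SUDHL2, and 2 rose and 4 fell in SUDHL6. Falls in SUDHL2 and rises in SUDHL6 were near the shares of all genes (16.5% and 13.9%). The pyruvate carrier MPC1 rose in both (0.82 ± 0.12 and 0.70 ± 0.12, adjusted p = 9.3e-07 and 1.9e-05), although more genes of this list fell (4) than rose (2) in SUDHL6. Of 21 mobile carriers and exchange genes, 5 rose and 5 fell in SUDHL2, and 7 rose and 3 fell in SUDHL6. Both shares in SUDHL2 and the falls in SUDHL6 were near those of all genes. COQ3 and PDSS1, enzymes of ubiquinone synthesis, were lower in both lines (COQ3 by 0.87 and 1.22, PDSS1 by 1.24 and 0.83). They do not stand for the list, of which more genes rose (7) than fell (3) in SUDHL6.

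The MYC E-box was unevenly spread over the promoter windows of the 76 genes. Of the 20 genes that fell in either line, 15 have a window, and 5 of these hold CACGTG (33.3%). Of the 49 with a window that did not fall, 2 do (4.08%). The share was 7.43% among all promoters and 8.88% among those of protein-coding genes. The split was made by the measured response, so it is given as a description, with no test. The 5 genes with an E-box among the 20 that fell all did so in SUDHL6. Most of the 20 (16) fell in that line, so this follows largely from the selection. In SUDHL2 ATP5MC1, ATP5PB and UQCR11 fell, while ATP5ME (-0.04 ± 0.11) and NDUFA11 (0.01 ± 0.11) were not called. MYC itself was called lower in SUDHL2 alone, and its part was not tested. The stretches around the E-boxes that lie before the start are printed with the E-box in capitals. The first 4 belong to genes that fell, and the last 2 to NDUFA7 and NDUFS7, which did not:
ATP5ME, chr4:674408-674463 (-): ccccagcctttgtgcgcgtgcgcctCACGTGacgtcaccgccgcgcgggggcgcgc
ATP5PB, chr1:111449216-111449271 (+): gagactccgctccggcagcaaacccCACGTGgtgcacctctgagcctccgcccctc
NDUFA11, chr19:5903892-5903947 (-): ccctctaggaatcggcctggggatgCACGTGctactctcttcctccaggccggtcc
UQCR11, chr19:1605619-1605674 (-): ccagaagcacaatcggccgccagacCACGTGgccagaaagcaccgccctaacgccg
NDUFA7, chr19:8321465-8321520 (-): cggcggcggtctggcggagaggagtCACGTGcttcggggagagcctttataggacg
NDUFS7, chr19:1383695-1383750 (+): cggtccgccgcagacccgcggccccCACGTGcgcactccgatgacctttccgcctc
The E-box of ATP5MC1, the remaining gene of the 5, lies after the start and is not printed. The NRF1 core occurred in 1 of the 15 windows of genes that fell (6.67%) and in 10 of the other 49 (20.4%).

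The vehicle itself was compared with untreated cells, using the DMSO arrays that also served as controls above. In SUDHL6 at 12 h, 14 of the 76 genes were higher with DMSO and none was lower, against 16.8% of all genes called (8.68% higher and 8.15% lower). The median change was 0.14, against 0.00 over all genes. The 14 were 7 of complex I, 4 of complex III and 3 of complex V. NDUFB1 rose by 0.75 ± 0.14 (adjusted p = 2.3e-04), from 6.45, 6.17 and 6.53 untreated. ATP5MC1 rose by 0.68 ± 0.18 (adjusted p = 0.0050), from 10.46, 10.38 and 10.90 untreated. UQCRB rose by 0.62 ± 0.15, UQCR11 by 0.56 ± 0.15, NDUFB2 by 0.52 ± 0.10, NDUFB9 by 0.51 ± 0.13, UQCRQ by 0.51 ± 0.11 and NDUFB7 by 0.48 ± 0.12. The count fell to 7 without untreated replicate 1 and to 7 without DMSO 12 h replicate 1. NDUFB1 was higher by 0.46 within slide 1 and 1.10 within slide 4, and ATP5MC1 by 0.28 and 1.01.

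For the genes named here the OTX015 mean at 12 h in SUDHL6 stood at various places relative to the untreated mean. ATP5MC1 averaged 10.58 untreated, 11.26 with DMSO and 10.30 with OTX015. UQCRB averaged 9.88, 10.50 and 9.96, and NDUFB7 10.07, 10.55 and 9.95. NDUFC1 averaged 7.89, 7.77 and 6.67. OTX015 against untreated was not tested.

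In SUDHL2 at 12 h the vehicle comparison gave 4 genes higher and 4 lower (22.9% of all genes were called, 12.1% higher and 10.8% lower). UQCR11 was higher by 1.06 ± 0.15 (adjusted p = 8.9e-07), from 5.93, 5.71 and 5.65 untreated to 6.97, 6.73 and 6.79. NDUFA6, an accessory subunit of complex I, rose by 0.74 ± 0.13 (adjusted p = 3.3e-05), NDUFV3 by 0.68 ± 0.15 (adjusted p = 6.6e-04) and NDUFC2 by 0.52 ± 0.18 (adjusted p = 0.029). SDHA fell by 0.55 (SE 0.11, adjusted p = 2.1e-04), NDUFV1 by 0.57 (SE 0.15, adjusted p = 0.0041) and UQCRC2 by 0.50 (SE 0.13, adjusted p = 0.0026). ATP5F1D fell by 0.72 (SE 0.13, adjusted p = 5.0e-05), but a further probe of it changed by 0.30 ± 0.16, so this gene is uncertain. NDUFV3 lost its call when its probes were averaged (adjusted p = 0.0565), UQCRC2 without DMSO 12 h replicate 2 (adjusted p = 0.0561), and NDUFC2 without untreated replicate 1 or 2 or DMSO 12 h replicate 1 or 3.

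At the early times the vehicle gave few calls. In SUDHL2, 2 genes were lower at 1 h (6.12% of all genes called, 3.5% higher and 2.62% lower). At 2 h 5 were lower (13.9% of all genes called, 7.91% higher and 5.97% lower). None was higher at either time. ATP5MK, a small subunit that holds the ATP synthase dimer together, read 8.87, 8.85 and 8.77 untreated, 7.81, 7.60 and 8.04 after 1 h of DMSO and 8.29, 7.87 and 7.43 after 2 h. It fell by 1.01 (SE 0.15, adjusted p = 1.9e-05) and 0.96 (SE 0.15, adjusted p = 9.0e-06), and at 12 h its DMSO arrays read 8.72, 8.85 and 8.64. ATP5MC3 fell by 0.51 and 0.52 (SE 0.13 in both, adjusted p = 0.014 and 0.0054). ATP5F1D, NDUFA11 and ATP5F1A fell at 2 h, by 0.59, 0.36 and 0.30. The count at 1 h was 1 without untreated replicate 2, and at 2 h it was 8 without DMSO 2 h replicate 1 and 3 without untreated replicate 3. In SUDHL6 no gene was called at 1 h (1.78% of all genes, 1.33% higher and 0.455% lower, 3 of the 76 with an unadjusted p below 0.05), and NDUFA8 alone was lower at 2 h (-0.46 ± 0.09, adjusted p = 5.4e-04, with 11.7% of all genes called, 5.31% higher and 6.41% lower).

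Untreated SUDHL2 and SUDHL6 differed in 62 of the 76 genes (81.6%, against 52.4% of all genes), 51 higher in SUDHL2 (27% of all genes) and 11 lower (25.4%). The median difference of the 76 was 0.50, against 0.01 over all genes. By complex, 27 genes of complex I, 2 of complex II, 1 of complex III, 9 of complex IV and 12 of complex V were higher in SUDHL2. The 11 that were lower comprised 3, 0, 3, 1 and 4 genes in the same order. ATP5MK was farthest apart, at 8.87, 8.85 and 8.77 in SUDHL2 and 5.65, 5.81 and 5.54 in SUDHL6 (3.16 ± 0.15, an 8.96-fold difference, adjusted p = 1.4e-21). NDUFB8 read 13.57, 13.79 and 13.59 against 11.76, 11.67 and 11.83 (1.89 ± 0.08, adjusted p = 1.2e-23). NDUFC1 differed by 1.57 ± 0.12, COX7B by 1.49 ± 0.13, COX5A by 1.14 ± 0.09, NDUFV2 by 1.08 ± 0.11, NDUFA1 by 1.02 ± 0.10 and NDUFS8 by 1.02 ± 0.13. All of these groups were separate.

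Among the genes lower in SUDHL2, NDUFA6 read 7.34, 7.05 and 7.07 against 8.32, 8.43 and 8.39 in SUDHL6 (-1.23 ± 0.13, adjusted p = 1.1e-10). NDUFA13 differed by -0.73 ± 0.13, UQCR11 by -0.71 ± 0.15, UQCRC1 by -0.69 ± 0.11, ATP5IF1 by -0.63 ± 0.12, ATP5MJ by -0.63 ± 0.14, ATP5MC2 by -0.55 ± 0.12 and ATP5ME by -0.41 ± 0.11. NDUFB4 and COX7B2 were not well above background on the untreated SUDHL6 arrays. For NDUFB4 the mean level in SUDHL2 was higher by an estimated 1.23-fold or more (means 5.67 and 5.09, adjusted p = 0.0042 from the fit). Here the dim group is set to the lowest signal above background on each array. The 1.23-fold bound makes no allowance for array-to-array spread. A further NDUFB4 probe had the same sign but was not called. For COX7B2 no fold is given. Slide 1 held an untreated array of each line, which differed by 3.33 for ATP5MK, 1.74 for NDUFB8, 1.71 for NDUFC1 and -1.06 for NDUFA6. The other untreated arrays lay on slide 2 for SUDHL2 and on slide 4 for SUDHL6. Line and slide are therefore partly confounded in this comparison.

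The panel gave a separate reading of both lines, with 1 array each. Of the 62 genes called, 47 had the same sign between SU-DHL-2 and SU-DHL-6 on the panel arrays, but the median difference of the 76 was 0.01 there, against 0.50 on the untreated time-course arrays. ATP5MK, NDUFC1 and NDUFB8 stayed far apart on the panel, at 2.21, 1.53 and 1.44, as did COX7B at 1.37 and COX5A at 0.85. NDUFA6 differed by -0.52 and NDUFA13 by -0.93. These genes kept their sign, but others of the 62 did not. NDUFB1 was higher in untreated SUDHL2 by 0.61 ± 0.14 (adjusted p = 4.0e-04), yet on the panel it was highest in SU-DHL-6. The median absolute gap between both readings was 0.37, against a pooled SD of 0.15 between replicate arrays. The sources of the panel cells are not given beyond the line name, and the panel pair lay on slide 6, apart from the untreated time-course arrays.

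**Figure D4:**
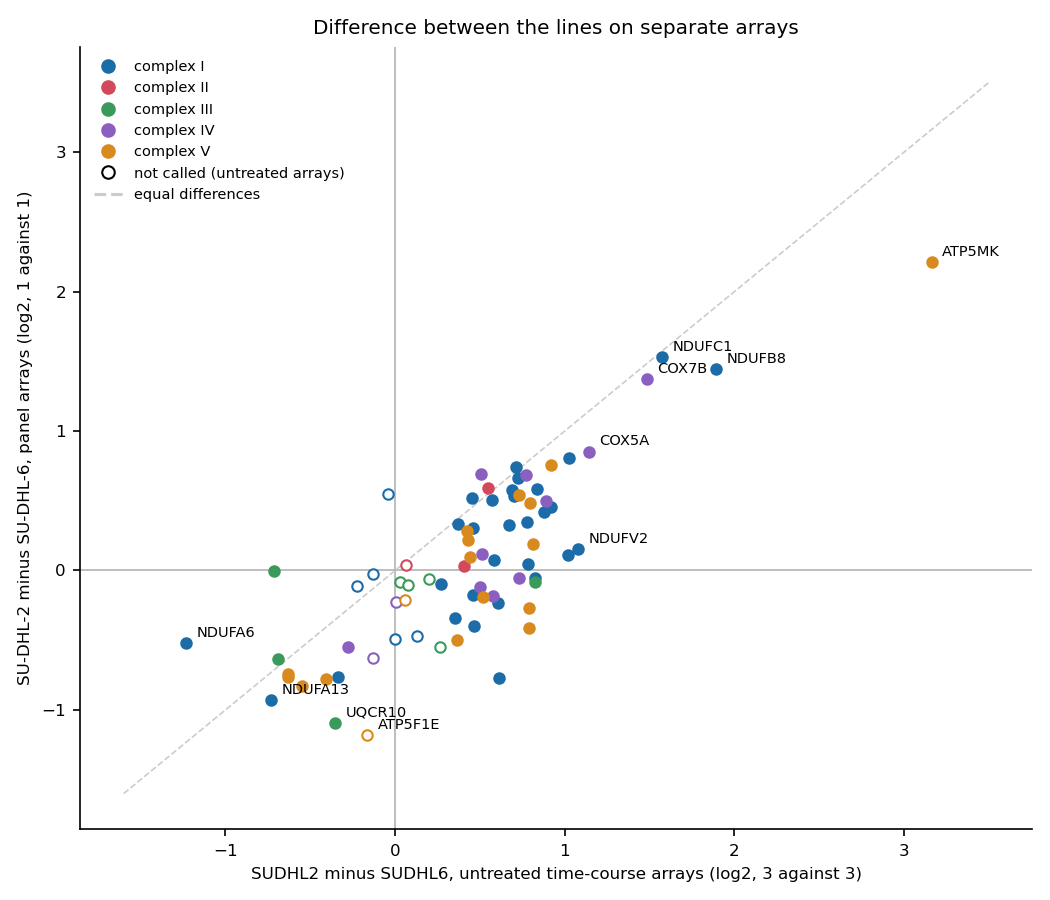
Difference between the lines for each of the 76 genes, on the untreated time-course arrays (x axis, SUDHL2 minus SUDHL6, 3 arrays against 3) and on the panel arrays (y axis, SU-DHL-2 minus SU-DHL-6, 1 against 1), in log2 units and coloured by complex. Filled points were called on the time-course arrays, and the dashed line marks equal differences. Most points lie below the line, while ATP5MK, NDUFB8 and NDUFC1 are far to the right and high on both axes.

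Across the 22 panel lines, 70 of the 76 genes were above background on every array. The range of a gene over the lines had a median of 1.54, against 1.72 over all genes tested. ATP5MK spanned the most, 4.38, from 5.18 in OCI-Ly19 to 9.55 in RCK8 with a median of 6.33, and was above background in 19 lines. ATP5IF1 followed at 3.08, from 8.72 in TMD8 to 11.80 in WSUDLCL2. Within complex I, NDUFA3 spanned 2.40 (9.91 in Karpas-422 to 12.31 in TMD8) and NDUFAB1 the least, 0.88. In complex II the extremes were SDHC at 2.11 and SDHA at 1.41, and in complex III UQCRB at 2.04 and UQCRHL at 0.95. In complex IV, COX7A2 spanned the most, 1.97, and COX4I1 the least, 0.82, and in complex V ATP5PO, 0.72. NDUFC1 was lowest in SU-DHL-6 (7.54) and highest in OCI-Ly3 (9.63), and NDUFB8 was highest in SU-DHL-2 (13.40). NDUFB1, the gene with the steepest response, was above background in 15 of 22 lines and was lowest in OCI-Ly8 and highest in SU-DHL-6 (6.80).

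After each gene was centred on its panel median, the median over the 76 genes was highest in SU-DHL-7 (0.31), RCK8 (0.23) and TMD8 (0.19), and lowest in OCI-Ly3 (-0.37), Karpas-422 (-0.33) and OCI-Ly19 (-0.33). In SU-DHL-7 60 genes lay above their panel median and in OCI-Ly19 14 did. The same median over all genes ran from -0.04 in Karpas-422 to 0.02 in OCI-Ly1. The lowest 4 lines, with OCI-Ly10 (-0.22), were all on slide 5, and the highest 3 on slides 6 and 7. Each line has 1 array on 1 slide, so line and slide cannot be told apart.

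**Figure D5:**
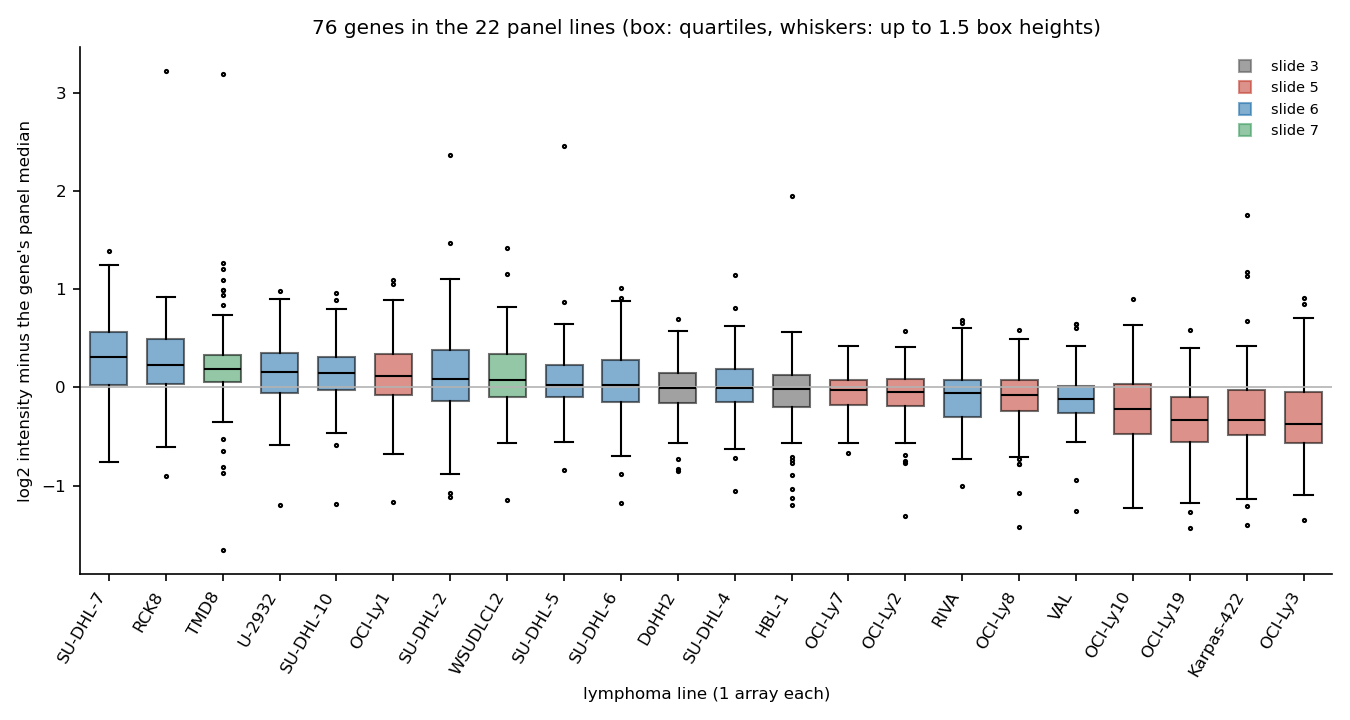
Distribution over the 76 genes of log2 intensity minus the gene's panel median in each of the 22 lymphoma lines (1 array each), ordered by their median and coloured by slide. Boxes span the quartiles with the median as a line. Medians run from 0.31 in SU-DHL-7 to -0.37 in OCI-Ly3, and the 4 lowest boxes are on slide 5.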

How the data were processed

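Total RNA was profiled on 64 single-channel Illumina arrays on 7 slides. The authors deposited a table of linear intensity per probe, not normalized, which was the input here, and a processed table of log2 values, used as an alternative. The sources used here do not say how the latter was made. Its medians were 6.64 on the time-course arrays and 6.74 on the panel arrays, 63 of its 64 columns matched the signals of their own array (the column for Karpas-422 did not), and its normalization and centring stay unknown. Neither table holds detection p-values, so the background distribution was built, array by array, by reflecting values under its mode, and probes with p below 0.01 on at least 3 of 42 time-course arrays were kept (26033 of 47231). Of all probes, 30113 had 1 gene symbol, 8 several and 17110 none. Signals were corrected with normexp (offset 16) and quantile normalized over 64 arrays. Each gene was read from its detected probe with the highest mean, and 21 of the 76 genes had further detected probes. One linear model with 14 group means was fitted with limma 3.58.1 in R 4.3.3 (eBayes with an intensity trend), with 16 contrasts, 2-sided tests and Benjamini-Hochberg adjustment over 13393 genes at 0.05. The model was also run on simulated data with independent noise. That simulation had no slide or experiment structure, so it cannot speak to such effects in these arrays. Precision is limited by the number of arrays.

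The genes named were up to 8 called genes per direction and comparison, a fixed set of core and isoform genes, the extremes of panel range in each complex, and up to 4 genes of each related list. The members and lists were chosen with earlier results of these data known. The alternatives were no background correction, an offset of 50, 75th percentile scaling, normalization over the time-course arrays alone, the authors' values, other probe filters, the mean of a gene's probes, no trend, array weights, slide or experiment number as a block, each array left out in turn, the third SUDHL6 experiment left out, and the panel without Karpas-422. Same-numbered arrays were not treated as pairs, since not every pair's deviations correlated above 0.1. The median was 0.02 in SUDHL2 (-0.35 to 0.40, against -0.02 for other numbers) and 0.20 in SUDHL6 (-0.02 to 0.44, against -0.14), where arrays of one slide also correlated at 0.15, against -0.17 across slides.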

Additional observations from a re-analysis of the deposited data

Results flagged for a closer look

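A set of genes responded differently to OTX015 in the 2 lines, by the test of the difference at 12 h (SUDHL2 minus SUDHL6, log2). NDUFC1 differed by 0.97, NDUFA13 by 0.66, NDUFB8 by 0.35 and NDUFA8 by -0.42. NDUFC1 was the one that kept its call under all 25 alternatives tried.

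Others responded differently at 12 h than at 2 h, by the test of that difference within a line. In SUDHL2 the shifts were -1.21 for NDUFB1, -0.79 for ATP5MC3, -0.78 for NDUFB4, -0.71 for ATP5MK, -0.53 for NDUFA9 and 0.62 for SDHA. A further NDUFB4 probe moved by 0.03, the opposite way, so NDUFB4 is uncertain. Neither ATP5MK nor NDUFB4 was called at 2 h or at 12 h alone. ATP5MK gave 0.47 ± 0.15 at 2 h (adjusted p = 0.078) and -0.23 ± 0.15 at 12 h (adjusted p = 0.25). The DMSO arrays at 2 h were themselves called lower than untreated for ATP5MK. In SUDHL6 they were -1.23 for NDUFB1, -1.06 for NDUFC1, -1 for ATP5MC1, -0.59 for NDUFB8, -0.58 for NDUFA11, -0.55 for NDUFA13, -0.55 for NDUFB10, -0.51 for NDUFB7, -0.50 for NDUFA9, -0.47 for ATP5PB and 0.57 for SDHA. Groups of 3 arrays and the 22 panel lines were not searched for single outlying arrays.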

How the results depend on the processing

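Of 82 called results for named genes, 52 kept their call under every alternative run. ATP5F1B in SUDHL2 at 12 h reversed, to 0.0125, with 75th percentile scaling, and the cause was not tested. No scaling moved the median of all genes by more than 0.1. The counts at 12 h after OTX015 were 10 to 14 in SUDHL2 and 12 to 19 in SUDHL6 when 1 array was left out, and the untreated lines differed in 57 to 60 genes. The blocked fit by experiment number gave 16 and 17 at 12 h and 59 for the untreated lines, and moved 2 counts by over 1.5 times, SUDHL6 OTX015 at 2 h to 2 and SUDHL2 DMSO at 1 h to 6. Counts that moved by over 1.5 times otherwise were small, and the cause was not tested. SUDHL2 OTX015 at 2 h went from 0 to 2 without background correction, with an offset of 50, with the authors' values and with array weights, and to 1 with slide as a block (0 to 2 with 1 array left out). SUDHL6 OTX015 at 2 h went from 1 to 3 with 75th percentile scaling and to 2 with slide as a block or array weights (0 to 2). SUDHL2 DMSO at 1 h went from 2 to 4 without background correction, with an offset of 50, the authors' values or the mean of the probes, to 5 with the filter on all arrays of a group, to 6 with 75th percentile scaling and to 7 with array weights (1 to 3). Array weights also gave 12 for SUDHL2 DMSO at 2 h (from 5, 3 to 8) and 13 at 12 h (8, 7 to 9). The 12 h minus 2 h count in SUDHL2 was 10 with slide as a block and 11 with array weights (6, 5 to 11), and in SUDHL6 7 with no filter on dim probes (11, 6 to 12). The difference between lines was 2 with no filter or without the third SUDHL6 experiment (4, 2 to 6). SUDHL6 DMSO at 12 h gave 7 to 15. The arrays behind these ranges are named beside the results. NDUFB4, NDUFC2 and COX7B2 lay near background, which limits what their values can show.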
